A study of Mus musculus with 6 samples.

Results

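Retinoic acid synthesis and signaling was described through 9 genes, Aldh1a1, Aldh1a2, Aldh1a3, Rara, Rarb, Rarg, Cyp26b1, Crabp2 and Dhrs3, of 34745 genes in the expression table. They were taken by symbol, and the list was chosen on measured values of the same comparison, so their levels and differences are given as a description with no test. The RNA came from mouse renal fibroblasts of WT genotype, cells of the connective tissue that were isolated from kidney by trypsin and collagenase and cultured as primary cells. There were 3 libraries of fibroblasts cultured alone, labeled as having no treatment, and 3 of fibroblasts in coculture with Th17 cells, helper T cells that produce interleukin-17. In the coculture the fibroblasts adhered for 6 h, the Th17 cells were then placed above them in an insert with pores of 0.4 μm, and the lower cells were collected after 24 h. The study's mice were Balb/c, given for its animals in general and not for these cultures by name. Whether fibroblasts cultured alone had an empty insert, and the age of the mice, were not given in the sources used here. The libraries were not stated to come from separate animals, cultures or wells, so errors and p-values here reflect how far these particular libraries differed, which may be technical.

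Total counts were between 12050529 and 13209581 per library, and 3 counts, used as a floor, were worth 0.223 to 0.254 CPM (counts scaled to a common library total with TMM factors, which correct for library composition). Each of the 6 libraries held counts of Xist, transcribed from the inactive X chromosome of females, and of 4 genes on the Y chromosome, so cells of both sexes were in every library. All 12 fibroblast markers were detected in every group. They summed to 36099 to 37960 CPM alone and 15969 to 17928 CPM with Th17 cells. Most of that sum was Col1a1, Col1a2 and Col3a1, at mean levels of 15072, 12462 and 4364 CPM alone. With Th17 cells these collagen genes were at 6228, 4621 and 961 CPM. Dcn was higher with Th17 cells (1427 against 504 CPM), Postn overlapped between the groups, and the other markers were lower. The sum is therefore not read as an amount of fibroblasts. T cell markers summed to 5.82 to 8.69 CPM alone and 4.79 to 5.58 CPM with Th17 cells. Cd3d, Cd2, Cd5, Il17a, Il17f and Ccr6, 6 of the 13 T cell markers, had 0 counts in all libraries.

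Retinoic acid is a hormone-like derivative of vitamin A that cells make in 2 steps: retinol dehydrogenases oxidize retinol to retinaldehyde reversibly, and the ALDH1A enzymes oxidize retinaldehyde to retinoic acid irreversibly. CRABP2 carries retinoic acid to the nuclear receptors RARα, RARβ and RARγ, which bind DNA together with RXR partners, and CYP26 enzymes hydroxylate retinoic acid for clearance. Several genes of the pathway, among them Rarb, Dhrs3, Crabp2 and Cyp26a1, are themselves known to be induced by retinoic acid in many cell types. In the kidney the pathway is best known from development, where retinoic acid made by stromal cells acts on the ureteric bud through Ret.

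RARβ is the receptor whose own promoter holds the classical retinoic acid response element, a direct repeat of receptor-binding hexamers with 5 bases between them. The promoter windows of RefSeq (GRCm38.p6, 250 bases before to 50 after each start) were searched on both strands for AGGTCA or GGGTCA or AGTTCA or GGTTCA followed by any of these after 5 or 2 or 1 bases. Of the 9 genes, 7 had a window, 14 windows in all, and of these Rarb alone held a match. Aldh1a3 and Crabp2 had no window and were not searched. Its stretch is shown because it gives the sequence through which the receptors read retinoic acid, and capitals mark the match, at bases 53 to 37 before the start (build GRCm38.p6, chr14:16575477-16575589, minus strand).
Rarb: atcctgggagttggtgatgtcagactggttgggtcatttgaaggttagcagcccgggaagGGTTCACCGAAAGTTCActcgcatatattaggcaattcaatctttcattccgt
The stretch upstream of Cyp26a1, a gene of the pathway outside the 9 that was picked for display after its match was seen, held the repeat on the opposite strand at bases 32 to 16 before the start (chr19:37697716-37697807, plus strand).
Cyp26a1: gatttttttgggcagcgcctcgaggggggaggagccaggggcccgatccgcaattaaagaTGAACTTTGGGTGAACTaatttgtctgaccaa
Of 32851 promoter windows of all genes, 32, or 0.097%, held a match with 5 bases between the hexamers, and 0.588% held one with any of the 3 spacers. Among 63 other retinoid genes with a window, Bco1 and Cyp26a1 held a match. A match is a string of letters in a window and was not tied here to binding.

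The comparison asked how coculture with Th17 cells changed the transcripts of this pathway in fibroblasts. Transcripts of 1 synthetic enzyme, Aldh1a3, were 75.1-fold higher with Th17 cells, while those of Aldh1a1, Aldh1a2, Crabp2 and Dhrs3 were lower by 1.81-fold to 4.5-fold, and those of the 3 receptors and of Cyp26b1 lay within overlapping ranges. All 9 genes passed the filter on low counts. With the study's threshold (edgeR, Benjamini-Hochberg adjusted p below 0.05 over all genes tested and a fold change above 2), 1 of the 9 was higher, beside 3.87% of 13088 genes tested. Past the same threshold 2 of the 9, Crabp2 and Dhrs3, were lower, beside 7.78% of all genes. Without the limit on fold change 1 was higher, beside 17.1%, and 4 were lower, beside 20.0%. For 5 of the 9 the CPM ranges were apart, beside 50.4% of all genes tested. Nothing is read from these counts, because the list was chosen with the comparison known. For genes outside the 9, which are tested, "rose" and "fell" are used at an adjusted p below 0.05, and "past the threshold" where the fold change limit was also met.

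**Figure D1:**
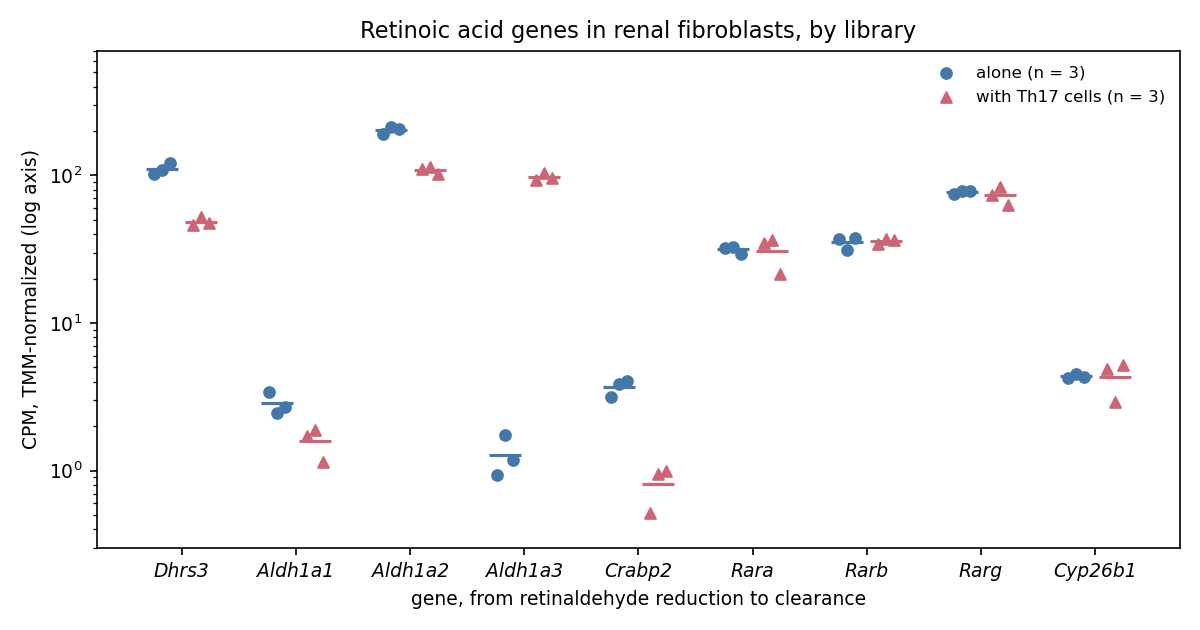
CPM of the 9 genes on a log axis, with circles for the 3 libraries of fibroblasts alone, triangles for the 3 libraries with Th17 cells and a bar at each group mean. Aldh1a3 stands at 0.931 to 1.74 CPM alone and at 92.6 to 104 CPM with Th17 cells, Crabp2 and Dhrs3 sit lower with Th17 cells in every library, and the receptors overlap.

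Aldh1a3 encodes a retinaldehyde dehydrogenase that makes retinoic acid (ENSMUSG00000015134, mm10 chromosome 7, 66390892 to 66427517, minus strand). It had 12, 22 and 14 counts in fibroblasts alone and 1246, 1318 and 1255 counts in fibroblasts with Th17 cells. Every cocultured library was thus far above every lone library, and the lone libraries held few fragments but were above the floor of 3 counts. Its level was 1.28 ± 0.413 CPM alone and 97.2 ± 5.65 CPM with Th17 cells (SD, n = 3 each), a log2 fold change (log2 ratio, from edgeR) of 6.23 (SE 0.157). Of the log2 fold changes of all 13088 genes tested this was number 10 from the highest. The size of the fold rests on the lone libraries, since the log2 fold change was 6.52 without lone replicate 2, the library with most counts, and 6.04 without lone replicate 1. On log2(FPKM + 1), a scale that shrinks low values, the difference was 3.96.

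Aldh1a2 encodes the main retinoic acid-making enzyme of embryonic mesenchyme and of mesothelium (ENSMUSG00000013584, chromosome 9, 71215789 to 71296243, plus strand). It had 2479, 2715 and 2452 counts alone and 1479, 1447 and 1342 counts with Th17 cells, so that all cocultured libraries were lower. The level was 205 ± 11.3 CPM alone and 109 ± 5.91 CPM with Th17 cells (SD, n = 3 each; log2 ratio −0.91 ± 0.0698 SE; 1.89-fold lower), short of the fold change limit of 2. Markers of mesothelium, the lining cell layer that also uses this enzyme, moved with it. They summed to 52.6 to 60.1 CPM alone and 12.9 to 18.1 CPM with Th17 cells, and the 3 of 6 that could be tested, Upk1b, Wt1 and Krt19, were lower past the threshold (edgeR with Benjamini-Hochberg adjustment). Msln, Upk3b, Upk1b and Lrrn4 had 0 counts in all cocultured libraries. Alone, Upk1b had 83 to 113 counts, but Msln had 0 to 2, Upk3b 1 to 8 and Lrrn4 5 to 9, so little can be read from their 0 counts. Most of the marker sum was Wt1 and Krt19, at 31.8 and 15.3 CPM alone and 13.1 and 2.47 CPM with Th17 cells. The part of mesothelial cells in the Aldh1a2 difference was not tested. In bulk RNA, fewer cells of a type and less RNA per cell cannot be told apart.

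Aldh1a1, which encodes the third enzyme of this group, was scarce (ENSMUSG00000053279, chromosome 19, 20601961 to 20643462, plus strand). It had 44, 31 and 32 counts alone and 23, 24 and 15 counts with Th17 cells. The ranges did not overlap, with 2.86 ± 0.5 CPM alone and 1.58 ± 0.389 CPM with Th17 cells (SD, n = 3 each; log2 ratio −0.85 ± 0.274 SE). Of the 50-base words of its transcript 6.54% also occur in Aldh1a7, a close relative, but Aldh1a7 had 0 counts in all libraries. Aldh1a2 and Aldh1a3 share no such word with another gene.

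Per length as deposited, the enzymes changed order. FPKM here are fragments scaled to the authors' length of each gene and to the library total. That length exceeded the longest annotated transcript for some genes, among them Aldh1a3 (3443 bases), Dhrs3 (2337 bases) and Rarg (2953 bases). For Aldh1a2 (2264 bases) and Rarb (3108 bases) it did not. Shares, ratios and ranks between genes therefore depend on the deposited lengths, and levels of the former genes may be understated. On this scale Aldh1a2 was at 88.5 ± 5.01 and Aldh1a3 at 0.23 ± 0.0739 in fibroblasts alone, the highest and the lowest levels of the 9 genes (SD, n = 3). With Th17 cells Aldh1a2 was at 49.0 ± 2.37 FPKM and Aldh1a3 at 18.2 ± 0.97 FPKM (SD, n = 3), ranks 1 and 2 of the 9. The sum of the 3 enzymes was 84.7, 94.1 and 91.4 FPKM alone and 67.9, 71.2 and 64.9 FPKM with Th17 cells, so their total on this scale was lower in every cocultured library while its composition differed. The lower total depends on the scale. In CPM, which is not divided by length, mean Aldh1a2, Aldh1a3 and Aldh1a1 were 205, 1.28 and 2.86 alone. With Th17 cells they were 109, 97.2 and 1.58 CPM, with no clear difference in total. Aldh1a3 made up 0.197%, 0.331% and 0.233% of that sum alone and 25.6%, 27.1% and 27.7% with Th17 cells. Aldh1a2 accounted for 98.2% ± 0.293 of the sum alone and 72.1% ± 0.96 with Th17 cells (SD, n = 3 each). Its FPKM exceeded that of Aldh1a3 by 298 to 498 times alone and by 2.58 to 2.86 times with Th17 cells.

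**Figure D2:**
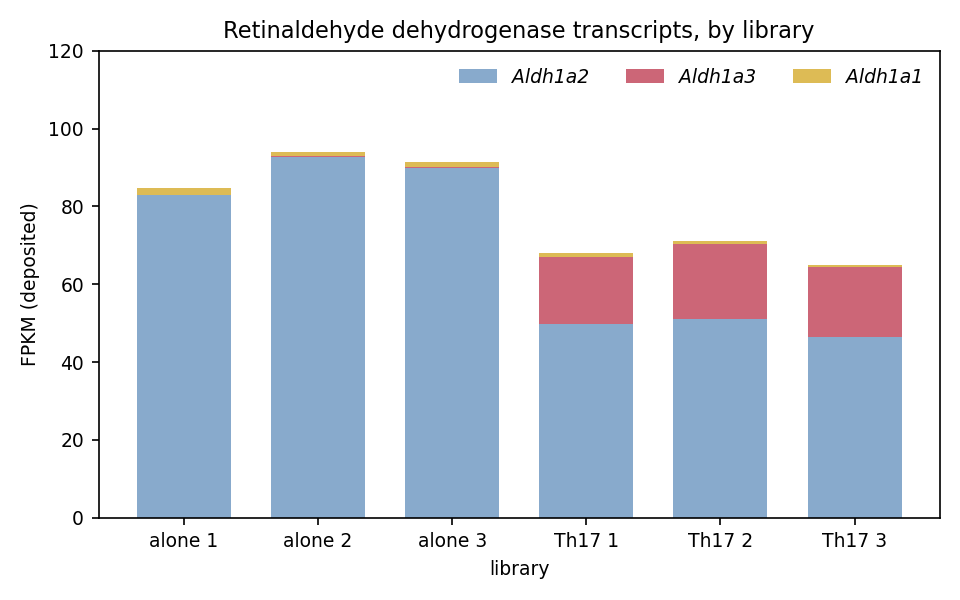
Stacked bars of the deposited FPKM of Aldh1a2, Aldh1a3 and Aldh1a1 in each of the 6 libraries. The total is lower in the 3 cocultured libraries (64.9 to 71.2 FPKM against 84.7 to 94.1 FPKM), and the Aldh1a3 segment is visible in those libraries, where it is 25.6% to 27.7% of the bar.

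Dhrs3 acts 1 step earlier, where it reduces retinaldehyde back to retinol and so limits the substrate of the ALDH1A enzymes (ENSMUSG00000066026, chromosome 4, 144892827 to 144928209, plus strand). It had 1314, 1380 and 1431 counts alone and 621, 666 and 626 counts with Th17 cells. All 3 cocultured libraries were below all lone ones, at 48.7 ± 3.21 CPM against 111 ± 9.61 CPM (n = 3 each, SD; log2 ratio −1.18 ± 0.0864 SE; 2.27-fold lower).

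Rdh10, the dehydrogenase that catalyzes the opposite reaction and pairs with DHRS3, had 130, 136 and 129 counts alone and 234, 237 and 271 counts with Th17 cells. It rose from 10.6 ± 0.432 to 18.9 ± 1.62 CPM (n = 3 each, SD; log2 ratio 0.84 ± 0.113 SE; adjusted p = 0.000421 by edgeR), short of the fold change limit of 2. The ratio of Rdh10 to Dhrs3 FPKM was 0.109, 0.109 and 0.0997 in fibroblasts alone and 0.417, 0.394 and 0.479 with Th17 cells. Dhrs3 thus remained the more abundant transcript of the pair in each library, by a smaller factor in the coculture (9.44 ± 0.504 times alone and 2.34 ± 0.231 times with Th17 cells; SD, n = 3 each).

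**Figure D3:**
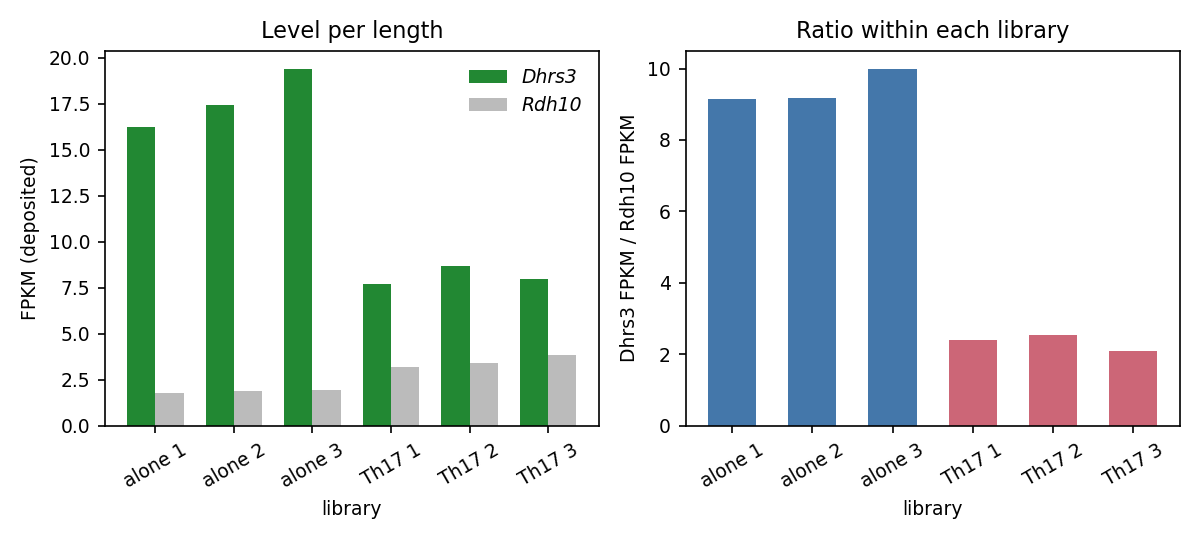
Left, deposited FPKM of Dhrs3 and Rdh10 in each library. Right, the ratio of Dhrs3 to Rdh10 within each library, which averages 9.44 in fibroblasts alone (blue) and 2.34 with Th17 cells (red).

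Crabp2 encodes the binding protein that hands retinoic acid to its receptors (ENSMUSG00000004885, chromosome 3, 87948666 to 87953376, plus strand). It had 41, 49 and 48 counts alone and 7, 12 and 13 counts with Th17 cells. The groups lay apart, at 3.7 ± 0.461 and 0.817 ± 0.258 CPM (n = 3 each, SD; log2 ratio −2.17 ± 0.291 SE; 4.5-fold lower), the lowest log2 fold change of the 9. These are low counts, and a filter that asked for 10 counts in every library removed the gene. Crabp1, its paralog, had 19, 13 and 26 counts alone and 16, 36 and 27 counts with Th17 cells, and did not pass the test (log2 ratio 0.37 ± 0.391 SE; adjusted p = 0.498 by edgeR). Fabp5, which encodes a fatty acid carrier that can bind retinoic acid, fell from 31.2 ± 1.14 to 20.1 ± 3.0 CPM (n = 3 each, SD; log2 ratio −0.64 ± 0.117 SE; adjusted p = 0.00243 by edgeR). Of the 50-base words of its longest transcript 4.42% occur in other genes. How shared fragments were counted was not given, so its value is uncertain by an unknown amount.

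The receptor transcripts did not separate the groups. Rara (ENSMUSG00000037992, chromosome 11, 98927818 to 98974942, plus strand) had 418, 418 and 346 counts alone and 472, 463 and 283 counts with Th17 cells (log2 fold change −0.03, SE 0.178). The cocultured libraries spanned the lone ones on both sides, and without cocultured replicate 3, the lowest, the log2 fold change was 0.18. Rarb (ENSMUSG00000017491, chromosome 14, 16430842 to 16575472, minus strand) had 479, 399 and 447 counts alone and 459, 472 and 478 counts with Th17 cells (log2 fold change 0.01, SE 0.0943). The gene with the printed response element therefore stood at 35.5 ± 3.46 CPM alone and 35.9 ± 1.54 CPM with Th17 cells (SD, n = 3 each). Its exons overlap those of Top2b and Gm48162 on the opposite strand, and the strand setting of the counting was not stated, so part of its counts may belong to these genes. Rarg (ENSMUSG00000001288, chromosome 15, 102234938 to 102257517, minus strand) had 961, 1002 and 931 counts alone and 992, 1071 and 830 counts with Th17 cells (log2 fold change −0.07, SE 0.102).

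Per length as deposited, the receptors summed to 30.4, 29.6 and 31.0 FPKM alone and 31.2, 34.0 and 27.7 FPKM with Th17 cells. Rarg made up 44.4% ± 2.01 of this sum alone and 43.0% ± 1.49 with Th17 cells, Rarb 37.7% ± 2.9 and 39.3% ± 4.5, and Rara 17.9% ± 1.48 and 17.8% ± 3.29 (SD, n = 3 each). The mixture of receptors thus varied between libraries of a group by more than its mean differed between the groups. Of their RXR partners, Rxra had 467, 431 and 404 counts alone and 788, 824 and 823 counts with Th17 cells. It rose from 34.8 ± 1.24 to 62.0 ± 3.12 CPM (n = 3 each, SD; log2 ratio 0.83 ± 0.076 SE; adjusted p = 3.4e-05 by edgeR). Rxrb did not pass the test (27.7 ± 1.74 and 28.8 ± 1.55 CPM; SD, n = 3 each; log2 ratio 0.06 ± 0.0915 SE; adjusted p = 0.654 by edgeR), and Rxrg had 0 counts in all libraries.

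Cyp26b1 encodes an enzyme that clears retinoic acid (ENSMUSG00000063415, chromosome 6, 84571414 to 84593908, minus strand). It had 55, 57 and 51 counts alone and 66, 37 and 68 counts with Th17 cells, so that the cocultured values lay on both sides of the lone ones (log2 fold change −0.01, SE 0.232). Its paralog Cyp26a1, with the repeat printed above, had 10, 4 and 10 counts alone and 0, 0 and 1 counts with Th17 cells, too few to pass the filter for testing. Cyp26a1 was thus at or under the floor of 3 counts in each cocultured library and above it in each lone library, while Cyp26b1 was above the floor in all 6.

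Ordered by FPKM, fibroblasts alone ran from Aldh1a2 through Dhrs3 (17.6 ± 1.59), Rarg (13.4 ± 0.468), Rarb (11.4 ± 1.12), Rara (5.42 ± 0.334), Crabp2 (2.28 ± 0.29), Aldh1a1 (1.36 ± 0.236) and Cyp26b1 (0.47 ± 0.0135) to Aldh1a3 (SD, n = 3 each). No neighbors in this order overlapped between libraries, but the order of genes depends on the deposited lengths. With Th17 cells the order was Aldh1a2, Aldh1a3, Rarg (13.4 ± 1.82), Rarb (12.1 ± 0.502), Dhrs3 (8.11 ± 0.494), Rara (5.56 ± 1.45), Aldh1a1 (0.785 ± 0.189), Crabp2 (0.526 ± 0.166) and Cyp26b1 (0.488 ± 0.142; SD, n = 3 each). Here Rarg overlapped Rarb, Aldh1a1 overlapped Crabp2, and Crabp2 overlapped Cyp26b1, so these neighbors were not separated. Aldh1a3 exceeded 4.45% of all tested genes in FPKM alone and 82.3% with Th17 cells, and Aldh1a2 exceeded 96.8% and 93.9%.

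The rest of the pathway was read from 4 lists of other retinoid genes, of which 84 were in the table and 51 could be tested. Their log2 fold changes had a median of 0.06, against 0.0 for all genes tested. Past the threshold 1 rose and 6 fell, and without the limit on fold change 14 rose and 11 fell (over all genes tested, 17.1% rose and 20.0% fell). These are 1.96% and 11.8% of the 51 past the threshold, beside the 3.87% and 7.78% of all genes given above.

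In the list for retinol uptake and retinaldehyde, 13 of 32 genes were tested, 1 rose and 3 fell past the threshold (3.87% and 7.78% of all genes), and the median was 0.17. Dhrs9, a dehydrogenase of the retinol family, and Lrp2, the endocytic receptor megalin of tubular epithelium, fell, with log2 fold changes of −1.64 (SE 0.256; adjusted p = 0.000969 by edgeR) and −2.36 (SE 0.371; adjusted p = 0.001 by edgeR). Lrp2 had 27 to 49 counts alone and 4 to 11 with Th17 cells, and the tubular epithelium markers, of which it is 1, summed to 4.99 to 6.4 CPM alone and 2.43 to 2.74 CPM with Th17 cells. Most of that difference was Lrp2 itself (3.03 and 0.582 CPM). Krt18 and Slc12a1, the other 2 of these markers that were tested, had no call. Rdh5, another retinol dehydrogenase, rose (log2 ratio 1.36 ± 0.229 SE; adjusted p = 0.00147 by edgeR). Its exons overlap Bloc1s1 on the same strand, so its counts are uncertain. The retinol receptor Stra6 had 8, 1 and 7 counts alone and 8, 13 and 6 with Th17 cells, and Lrat, which stores retinol as esters, had 3, 3 and 5 counts alone and 0 in each cocultured library. Both were too low to be tested.

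In the list for other synthesis, binding and degradation genes, 2 of 7 genes in the table were tested, Crabp1 and Fabp5. Neither passed the threshold of edgeR or of DESeq2 or limma, and 1, Fabp5, had an unadjusted p below 0.05. Fabp5 also fell at an adjusted p below 0.05, as did 20.0% of all genes tested. Their median was −0.13. Among receptor partners and cofactors, 20 of 22 were tested and none passed the threshold by edgeR, DESeq2 or limma. By edgeR 9 had an unadjusted p below 0.05. The share of all genes at that unadjusted limit is not given here, so the unadjusted counts are not read as results. Without the limit on fold change 7 of the 20 rose and none fell, beside 17.1% and 20.0% of all genes, and the median was 0.09. Ncor1, a corepressor of unliganded receptors, had 133 ± 8.21 and 133 ± 8.89 CPM (SD, n = 3 each; edgeR adjusted p = 0.959).

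Of 30 other genes known to respond to retinoic acid, 19 were tested, none rose and 5 fell past the threshold, beside 3.87% and 7.78% of all genes, with a median of −0.27. Without the limit on fold change 4 rose and 9 fell, beside 17.1% and 20.0% of all genes. Of those that rose, Nrip1 and Ret had log2 ratios of 0.88 (SE 0.078, adjusted p = 2.8e-05 by edgeR) and 0.87 (SE 0.129, adjusted p = 0.000712 by edgeR). Asb2 and Meis1 had 0.62 (SE 0.119, adjusted p = 0.00308 by edgeR) and 0.55 (SE 0.0699, adjusted p = 0.000291 by edgeR). Falls short of the fold change limit were of like size. Meis2 had −0.65 (SE 0.0872, adjusted p = 0.000392 by edgeR) and Hoxb2 −0.62 (SE 0.121, adjusted p = 0.00336 by edgeR). Btg2 had −0.45 (SE 0.0648, adjusted p = 0.000592 by edgeR). Cd38, an ectoenzyme, fell from 9.36 ± 1.38 to 0.354 ± 0.188 CPM (n = 3 each, SD; log2 ratio −4.68 ± 0.308 SE; adjusted p = 3.74e-06 by edgeR). Rarres2, which encodes the secreted attractant chemerin, fell from 35.6 ± 1.24 to 9.36 ± 1.45 CPM (n = 3 each, SD; log2 ratio −1.93 ± 0.123 SE; adjusted p = 3.13e-06 by edgeR). Hoxa4, a patterning gene, fell just past the threshold (log2 ratio −1.02 ± 0.157 SE; adjusted p = 0.000897 by edgeR). It was short of the fold change limit without lone replicate 3 (−0.98) or cocultured replicate 3 (−0.89), when scaled by library size alone (−0.96), and in the limma fits on log2(FPKM + 1) (−0.84) and log2(FPKM + 0.1) (−0.96). Dhrs9, given above, is also among the 5. Tgm2, a transglutaminase, fell from 307 ± 10.3 to 255 ± 14.8 CPM (n = 3 each, SD; log2 ratio −0.27 ± 0.0634 SE; adjusted p = 0.00947 by edgeR). The exons of Rarres2, Hoxa4, Hoxb2, Tgm2, Meis1 and Ncor1 overlap genes on the opposite strand, so their counts carry the same uncertainty as those of Rarb. Those of Meis1 also overlap Gm37818 on the same strand. Macrophage and dendritic cell markers summed to 64.4 to 65.7 CPM alone and 24.5 to 25.9 CPM with Th17 cells, and endothelial markers to 6.79 to 8.03 and 2.05 to 3.06 CPM. Most of the first difference was Lyz2 (27.6 and 3.33 CPM). Of 7 macrophage and dendritic cell markers tested 5 fell, beside 20.0% of all genes, and Cd14 and Zbtb46 had no call. Of 2 endothelial markers tested, Kdr fell (5.55 to 0.126 CPM) and Pecam1 had no call (1.24 and 1.32 CPM). These sums are therefore not read as amounts of cells. The part of such cells in the falls of Cd38 and the other targets was not tested.

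**Figure D4:**
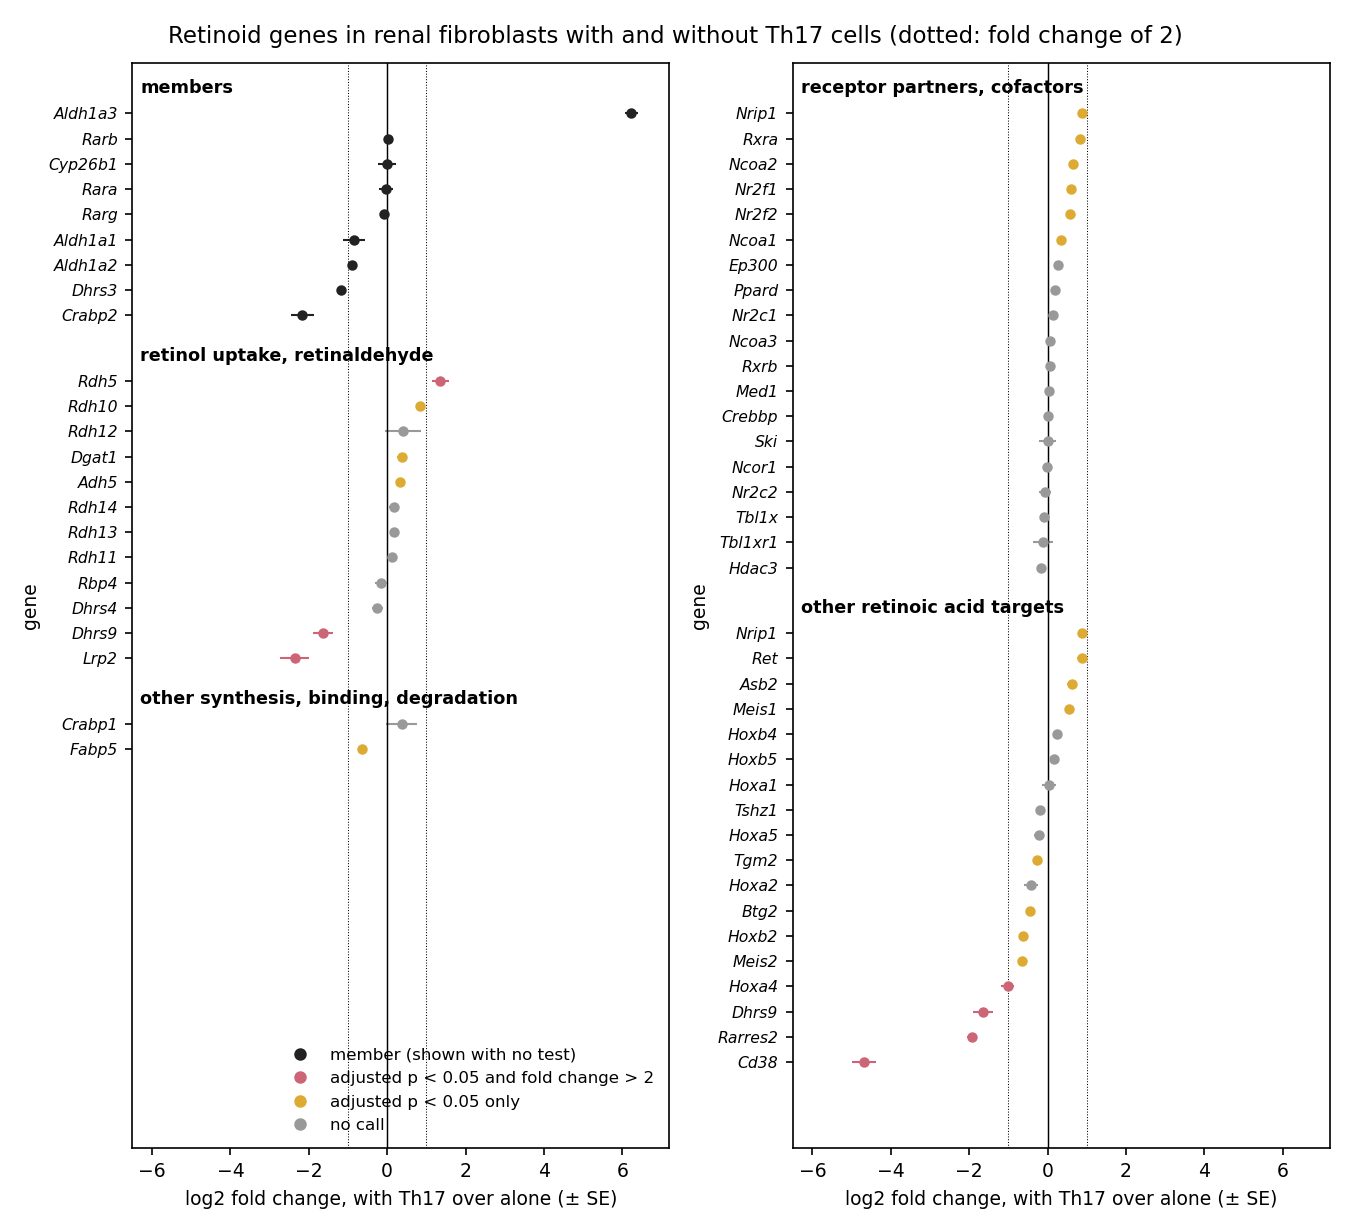
Log2 fold change with SE (with Th17 cells over alone, 3 libraries each) for the 9 genes, in black and without a test, and for tested genes of the 4 other retinoid lists, colored by edgeR call. Aldh1a3 lies at 6.23, the points colored red among the other targets lie below 0, and the plotted receptor partners and cofactors lie inside the dotted lines that mark a fold change of 2.

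**Figure D5:**
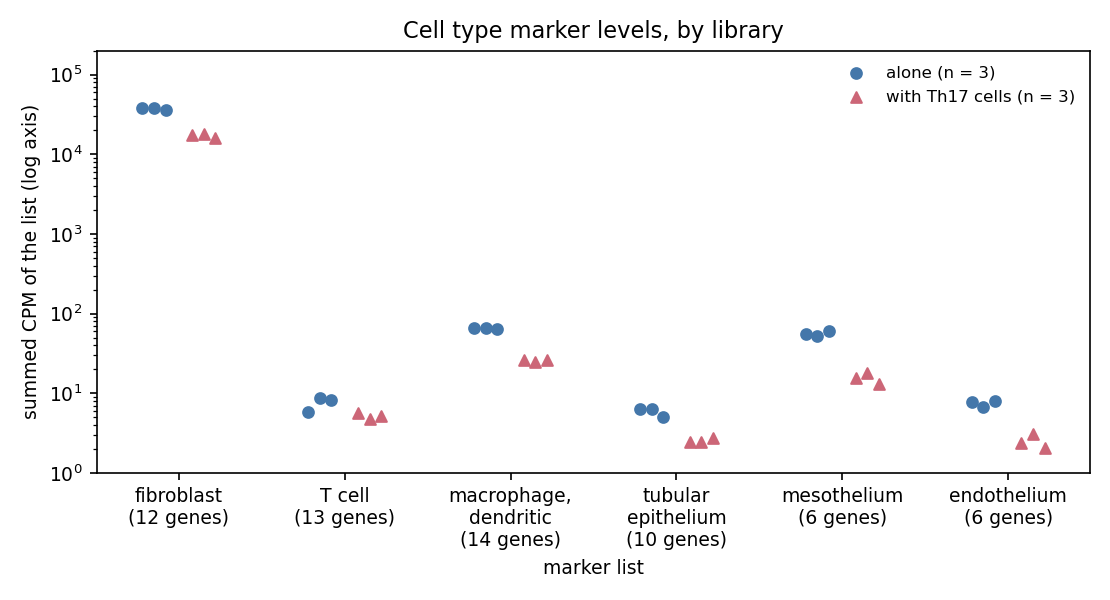
Summed CPM of 6 marker lists in each library on a log axis, circles for fibroblasts alone and triangles for fibroblasts with Th17 cells. Fibroblast markers are at 15969 to 37960 CPM, all other lists are below 100 CPM in every library, and the sum of each list is lower in all 3 cocultured libraries. The fibroblast sum is mostly Col1a1, Col1a2 and Col3a1, and members of this and of some other lists do not all move the same way.

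Genes were also ordered by how closely their log2 CPM followed that of Aldh1a3 over the 6 libraries. The 3 closest were Gm5424, Rbpsuh-rs3 and Kcnq5, with Pearson correlations of 0.9999, 0.9996 and 0.9993. In all, 199 genes had a correlation above 0.99 and 338 had one below −0.99. Sequence that the 3 closest genes may share with other genes was not checked, so their counts may include fragments of other genes. The 6 points fall into 2 groups and share their libraries, so the order is a description with no test. Gm5424 had 516, 626 and 499 counts alone and 3700, 3594 and 3703 counts with Th17 cells, a log2 fold change of 2.67 against 6.23 for Aldh1a3.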

How the data were processed

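RNA was sequenced from 3 libraries of fibroblasts alone and 3 libraries of fibroblasts with Th17 cells. Reads were filtered with Seqtk, aligned with HISAT2 2.0.4 and quantified with StringTie 1.3.3b by the authors, who deposited raw fragment counts per gene. Beside the counts the authors deposited FPKM, which gave 1 gene length per gene for 10223 of 10223 genes checked (at least 50 counts, tolerance 1%) and so carries no TMM factor. The submitters' processing notes name mm10. The strand setting of the counting and the handling of fragments shared by several genes were not given in the sources used here. Of the gene identifiers, 34344 occur in GENCODE vM21 (GRCm38), and 99.9% of these overlap their own position.

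Groups were taken from sample titles and columns from sample descriptions. All 34745 rows named a gene. For 59 symbols listed more than once, the entry with the highest count was taken. Counts were analyzed in R 4.3.3 with edgeR 4.0.16 (TMM, filterByExpr with a minimum count of 10, glmQLFit, glmQLFTest, Benjamini-Hochberg over 13088 genes), with the study's limits (fold change above 2 at an adjusted p below 0.05). SE is the log2 fold change divided by the square root of F. The alternatives were DESeq2 1.42.0, limma 3.58.1 on log2(FPKM + 1) and log2(FPKM + 0.1), other scalings and filters, each library left out, and a replicate block. Counts were also simulated for 12956 genes, all with the same spread between libraries (common dispersion 0.0136). On these the edgeR test recovered 97% of genes changed by 1 and 100% of those changed by 2 on the log2 scale. Recovery was scored at an adjusted p below 0.05 with no fold change limit, and 10 unchanged genes were called. The spread of single genes and the composition shift of the real libraries were not simulated, so these shares are not the power of the calls given here. Floors cover counting error only, since no molecular identifiers are described and fragments may be copies of 1 molecule.

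The 9 genes, the retinoid lists and the marker lists were chosen with earlier results of these data known. Of each retinoid list, up to 6 genes were named that passed the threshold and averaged 30 or more counts in the group where they were higher, together with Rdh10, Stra6, Lrat, Aldh1a7, Crabp1, Fabp5, Cyp26a1, Rxra, Rxrb, Rxrg, Ncor1 and Tgm2 whatever their values. The other targets that rose without the fold change limit (Nrip1, Ret, Asb2 and Meis1) were named as well, after their values were seen. So were Meis2, Hoxb2 and Btg2, which fell short of that limit. The lists share genes. Some genes of the lists enter the counts but are not reported here by name. Cyp27c1 was not found under its symbol. Figures were drawn with Python 3.11.15, pandas 2.3.3 and matplotlib 3.10.9.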

Additional observations from a re-analysis of the deposited data

How the results depend on the processing

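Of the 9 genes, 3 passed the threshold under DESeq2, the other scalings, no filter, both limma fits, the replicate block (3) and each fit without 1 library, 2 with at least 10 counts in every library and 5 without the limit on fold change. The genes for retinol uptake and retinaldehyde past the threshold numbered 4 in each fit without 1 library and under the replicate block, 1 with limma on log2(FPKM + 1) and 7 without the limit on fold change. Other synthesis, binding and degradation genes numbered 0 in each fit without 1 library, 3 with no filter on low counts (Cyp26a1, Cyp26c1 and Cyp2s1, all lower) and 1 without the limit on fold change. Receptor partners and cofactors numbered 0 in each fit without 1 library and 7 without the limit on fold change. Other retinoic acid targets numbered 4 to 5 in the fits without 1 library, 9 with no filter, 3 with limma on log2(FPKM + 1) and 13 without the limit on fold change. The last setting counts by construction more genes, and the pseudocount of 1 shrinks low values. Over all genes tested, 1524 of 13088 passed the threshold in the main fit and 4856 did without the limit on fold change. With no filter 1755 of 19278 passed, and with at least 10 counts in every library 1064 of 12102. With limma on log2(FPKM + 1) 626 of 13088 passed. The changes between settings are not read as results about the retinoid genes. The Aldh1a3 share of Aldh1a FPKM with Th17 cells was 26.3% to 27.4% without 1 library and 46.9% as a share of summed counts, which are not divided by length.

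Over 15 alternatives the log2 fold change was 3.96 to 6.52 for Aldh1a3, −0.96 to −0.84 for Aldh1a2, −1.0 to −0.4 for Aldh1a1 and −1.24 to −1.03 for Dhrs3, and over 14 it was −2.33 to −1.11 for Crabp2, with the value nearest 0 from limma on log2(FPKM + 1) for each. Rara, Rarb, Rarg and Cyp26b1 took both signs. With library size only, the median of all genes shifted by 0.063. The split of calls without a fold limit depended on scaling, since decreases made up 53.8% with TMM factors, 43.9% when only library size was used, and 44.2% and 44.4% in the limma fits. Replicate numbers did not pair the libraries (correlations of deviations 0.016, −0.026 and −0.004), and the replicate block gave 4513 calls at any fold against 4856 without it. Depth limits Crabp2, Aldh1a1, Cyp26b1 and lone Aldh1a3, at 7 to 68 counts per library.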
